A study of Bos taurus with 18 samples.

Results

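The polled locus is the stretch of cattle chromosome 1 at which dominant alleles abolish horn growth, and Angus is a breed without horns. Horns grow from a bud of skin and underlying tissue in the fetal head, and the known polled alleles lie outside coding sequence, among them a duplication in Celtic-derived breeds. Selection for a hornless allele can leave a stretch in which animals of a breed carry the same haplotype, which would show as sites with a single homozygous genotype. The window described here runs from position 1000000 to 3000000 of chromosome 1. It was defined by position, around the locus near 1.7 Mb, with earlier results of these data known. It held 1113 of the 992284 listed single-nucleotide polymorphism (SNP) sites of the study, against 49081 on the rest of the chromosome. The SNP table assigned 789 of these sites to 20 gene models, of 27376 in the gene table, and 324 to none. The gene models are numbered from gene21 to gene44 and could not be paired with gene symbols, so their functions are not given.

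The animals were Angus cows in 3 ages with 3 cows each: calves of 6 months fresh from weaning, mature cows of 18 months, and cows of 30 months that had borne a first calf. No cow was in heat. Poly(A) RNA of the pituitary and of the hypothalamus was sequenced from each cow, which made 18 libraries in 6 groups of 3. No group had received a treatment, the cows' relationships were not given, and no animal of a horned breed was included.

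Total gene counts ran from 28724861 to 38036840 per library. Genotypes placed the libraries in 9 pairs, each made up of both tissues at a single age. Paired libraries were identical at 99.3% to 99.7% of sites read at least 20 times in both, against 50.1% to 66.7% between libraries of different animals. Each gene count column had its highest correlation with the reads at SNP sites of the library with the same label (18 of 18 columns, over 10189 gene models; r from 0.370 to 0.83, across genes, which are not independent). The 2 tissues as labelled did not separate. After centring each gene, counts had a median correlation of -0.0936 within a tissue (72 library pairs) and -0.0814 across tissues (81 library pairs), and reads at SNP sites had -0.0951 and -0.0634. Markers of pituitary or hypothalamus could not be checked without gene symbols, so each tissue is named only as labelled. The 18-month pituitary replicate 3 stood apart in its reads at SNP sites. In the window it had 72 sites read at least 10 times and 3845 allele reads, against 116 to 147 sites and 5843 to 8778 reads in the other libraries. The shortfall was not limited to the window. Over all listed sites, it shared 29812 sites read at least 20 times with its paired library, against 52590 to 70241 in the other pairs. Its total gene count, 33941804, lay within the range of the other libraries.

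RNA reads covered the window unevenly. A genotype was accepted for an animal where a library had at least 10 reads and where both tissues, if both were that deep, were identical. By this rule 223 of the 1113 sites were genotyped in at least 1 animal, 101 in all 9, and 890 in none. Coding and untranslated sites were genotyped far more often (111 of 125) than introns (62 of 523). In 957 cases both tissues of an animal reached 10 reads at a site, and 945 of these (98.75%) had the same genotype. The window was rich in listed sites, 14th of 79 windows of 2 Mb on the chromosome, where the other windows had a median of 537. Nonsynonymous changes made up 2.96% of its listed sites (33 sites) against 1.53% on the rest of the chromosome, synonymous changes 3.86% against 2.42%, and introns 46.99% against 56.6%.

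Heterozygosity in the window differed widely from cow to cow. Among the 6-month cows, animal 1 was heterozygous at 28.4% of its genotyped window sites, animal 2 at 64.3% and animal 3 at 2.74%. Among the 18-month cows the values were 24.5%, 49.03% and 19.3% for animals 1, 2 and 3, and among the 30-month cows 34.2%, 4.76% and 24.2%, each over 140 to 157 sites. The ages overlapped, and both a very low and a high value occurred among the 6-month cows. On the rest of the chromosome the same cows lay closer together, from 28.3% in 18-month animal 2 to 45.9% in 6-month animal 2. Those values average over 5520 to 6929 sites per cow. Single windows spread more widely, with a median SD between cows of 17.6 points in the other 37 windows, against 19.6 in this window.

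The mean over the cows was 27.9% ± 19.6 (SD, n = 9) in the window and 33.5% ± 5.08 on the rest of the chromosome. The window was lower in 6 cows and higher in 3, with a mean difference of -5.52 percentage points (SD 17.9). A two-sided exact sign-flip permutation test over the 9 cows gave p = 0.371, or 0.652 after Benjamini-Hochberg adjustment over 38 windows with enough genotyped sites. The adjusted test called 0.0% of these windows lower and 0.0% higher, while 2.63% were lower and 10.5% higher at an unadjusted p under 0.05. The smallest p that 9 cows allow is 0.00391. For any window to be called, at least 3 would have to be called together, and 3 would suffice only if each reached that p.

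**Figure D1:**
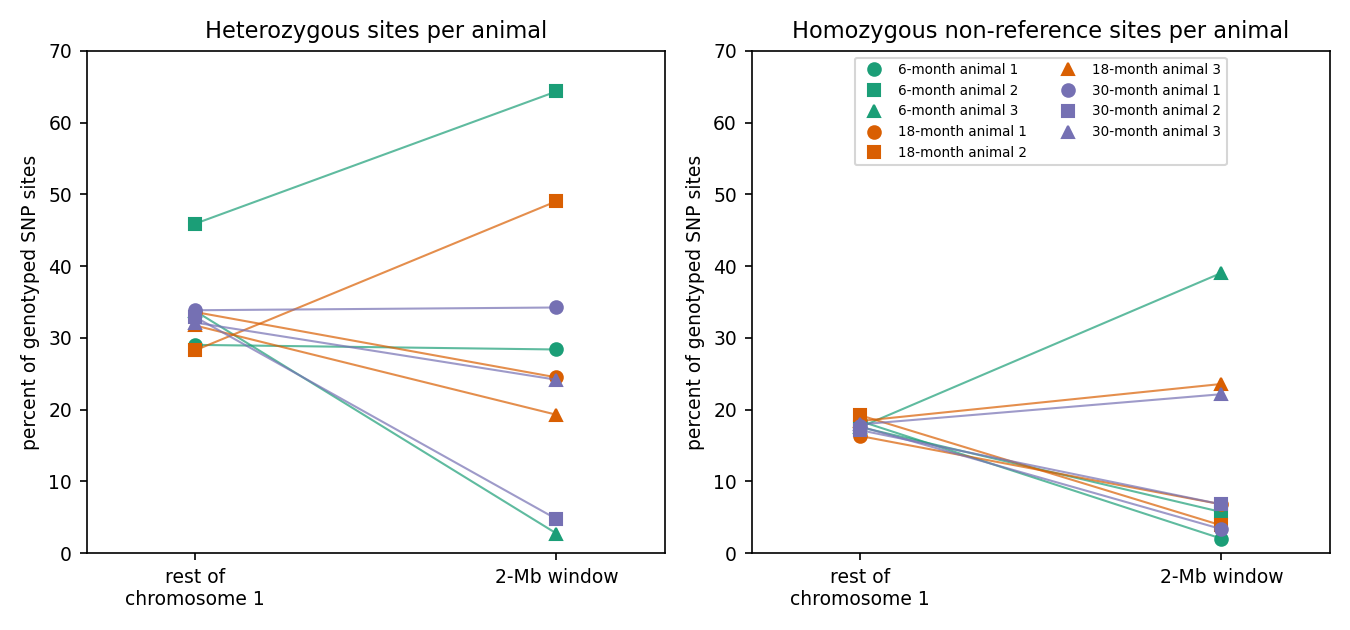
Percent of genotyped SNP sites that were heterozygous (left) or homozygous non-reference (right) in each of the 9 cows, on the rest of chromosome 1 and in the 2-Mb window, with a line for each cow. In the window heterozygosity spreads from 2.74% to 64.3%, while averaged over the whole rest of the chromosome, with many more sites, it lies between 28.3% and 45.9%.

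Homozygous non-reference genotypes were concentrated in 3 cows. They made up 39.0% of the window sites of 6-month animal 3, 23.6% of those of 18-month animal 3 and 22.1% of those of 30-month animal 3, and from 2.03% to 6.80% in the other cows. Averaged over the whole rest of the chromosome, all cows lay between 16.3% and 19.2%. The mean was 12.6% ± 12.7 in the window and 17.8% ± 0.832 outside (SD, n = 9), a difference of -5.21 points, lower in 6 cows and higher in 3 (exact permutation p = 0.25, adjusted p = 0.413). For this share too the adjusted test called 0.0% of windows in either direction, and 21.1% were lower and 23.7% higher at an unadjusted p under 0.05.

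Set against the other 37 windows, the window lay inside the range of each measure given here when all 9 cows were used. Its mean heterozygosity was the 13th lowest of 38, where the others ran from 19.6% to 50.8% with a median of 33.4%. The SD between cows was the 12th highest, 19.6 points against a median of 17.6. The mean homozygous non-reference share was the 6th lowest, and its SD between cows the 8th highest, 12.7 points against a median of 9.21.

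**Figure D2:**
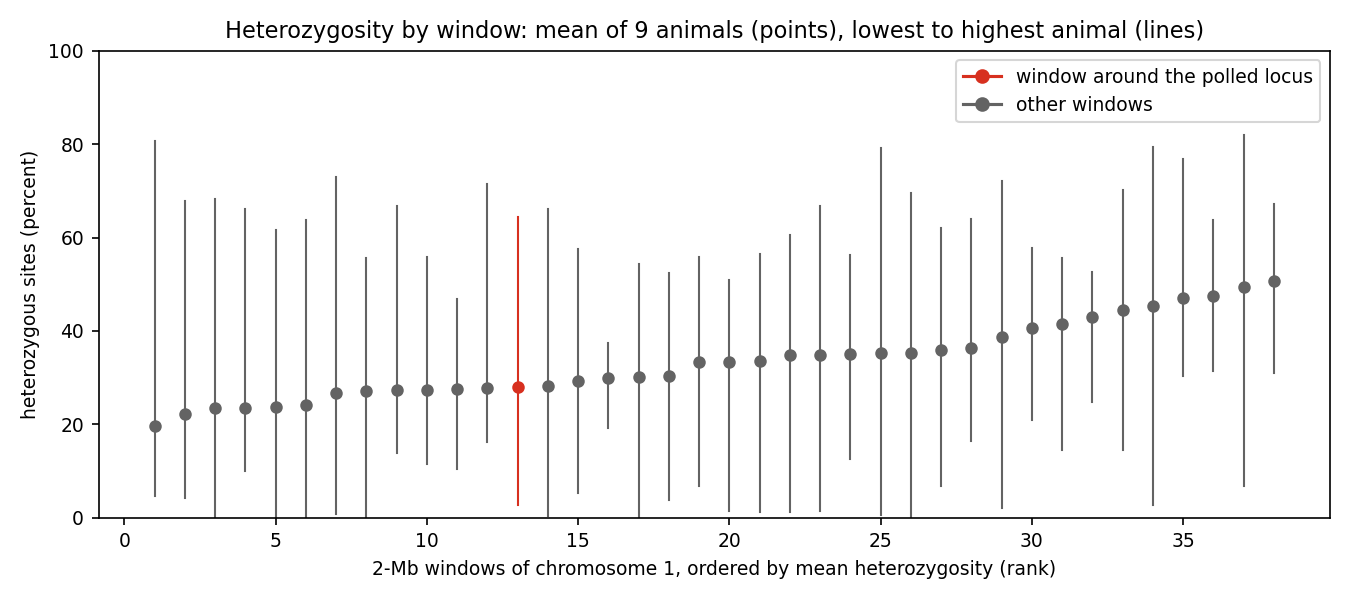
Heterozygous sites in percent for 38 windows of 2 Mb on chromosome 1, ordered by mean, with a point for the mean of 9 cows and a line from the lowest to the highest cow. The window around the polled locus (red) is 13th from the lowest, with a mean of 27.9% among windows from 19.6% to 50.8%.

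A single homozygous genotype shared by every cow was rare. Of the 101 sites genotyped in all 9 cows, 1 had the same homozygous genotype in each (0.990%, exact Clopper-Pearson 95% interval 0.0251% to 5.39%, counting error only), the 10th lowest of 38 windows, where the others had a median of 2.38%. Sites are listed because some library differed from the reference, so sites at which all cows match the reference are not in the table and this share leaves them out. The place of the window in this order turned on a few cows. Without 6-month animal 2 the share was 35.6%, which ranked 31 of 38 from the lowest, and without 18-month animal 2 it was 19.05%, the highest of the 38 windows. Those cows alone carried the variation at many sites. 6-month animal 2 was the only cow to differ at 35 of the 101 sites (34.7%, against 14.8% of 3426 sites on the rest of the chromosome), and 18-month animal 2 at 18 sites (17.8% against 2.16%), heterozygous each time.

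Pairs of cows shared alleles to very different degrees. Identity by state, the mean share of alleles that a pair has in common at a site, averaged 78.4% over the 36 pairs in the window and 77.5% on the rest of the chromosome. In the window it ran from 58.3%, between 6-month animals 2 and 3, to 98.1%, between 18-month animal 1 and 30-month animal 1, whereas averaged over the whole rest of the chromosome it ran from 69.9% to 84.0%. Single windows spread more widely than that average: the most distant pair was as far apart or further in 20 of the other 37 windows, with a median of 57.2%. The closest pair, 18-month animal 1 and 30-month animal 1, had the same genotype at 127 of 132 sites, and 18-month animal 3 and 30-month animal 3 at 118 of 123. By contrast, 6-month animal 3 and 30-month animal 2, the least heterozygous cows, were opposite homozygotes at 41 of 121 sites. A pair as close as the closest was found in 18 of the other 37 windows, and 4 or more pairs at 95% or above, as here, in 5 of them.

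The genotypes changed together along the chromosome. The 101 sites showed 17 different patterns over the 9 cows, and 3 patterns held 68 of the sites. In the first, at 35 sites from position 1231574 to 2204884, 6-month animal 2 was heterozygous and the other cows had the reference allele. In the second, at 18 sites from 1000947 to 2180090, the same held for 18-month animal 2. The third covered 15 sites in gene22, gene23, gene25, gene26 and gene27, from 1226934 to 1361281 (134 kb). There 6-month animal 3, 18-month animal 3 and 30-month animal 3 were homozygous non-reference, 30-month animal 2 was homozygous reference, and the other 5 cows were heterozygous.

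Beyond that block the combination changed. At 4 sites of gene28, within 0.457 kb from 1376520, 6-month animals 2 and 3 were homozygous non-reference and 18-month animals 2 and 3 and 30-month animal 3 were heterozygous. At 6 sites of gene29, from 1466733 to 1496045, 6-month animal 3 was homozygous non-reference, 18-month animal 3 and 30-month animal 3 were heterozygous, and the other 6 cows had the reference allele. The stretch from 2.0 to 2.2 Mb, singled out after its values were seen, had 16 sites genotyped in all cows, and at these 7 of the 9 cows had no heterozygous site. Only 1 of 117 other 0.2-Mb stretches of the chromosome with at least 10 such sites (0.855%) had as many cows without one, and the median was 2 cows. Over all 30 sites of the stretch genotyped in any cow, 2 cows had no heterozygous site, and 35 of 198 genotypes were heterozygous. Most of the 16 sites were in gene38, where 6-month animal 2 was heterozygous at 15 sites, 18-month animal 2 at 5 and no other cow at any of its genotyped sites there.

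**Figure D3:**
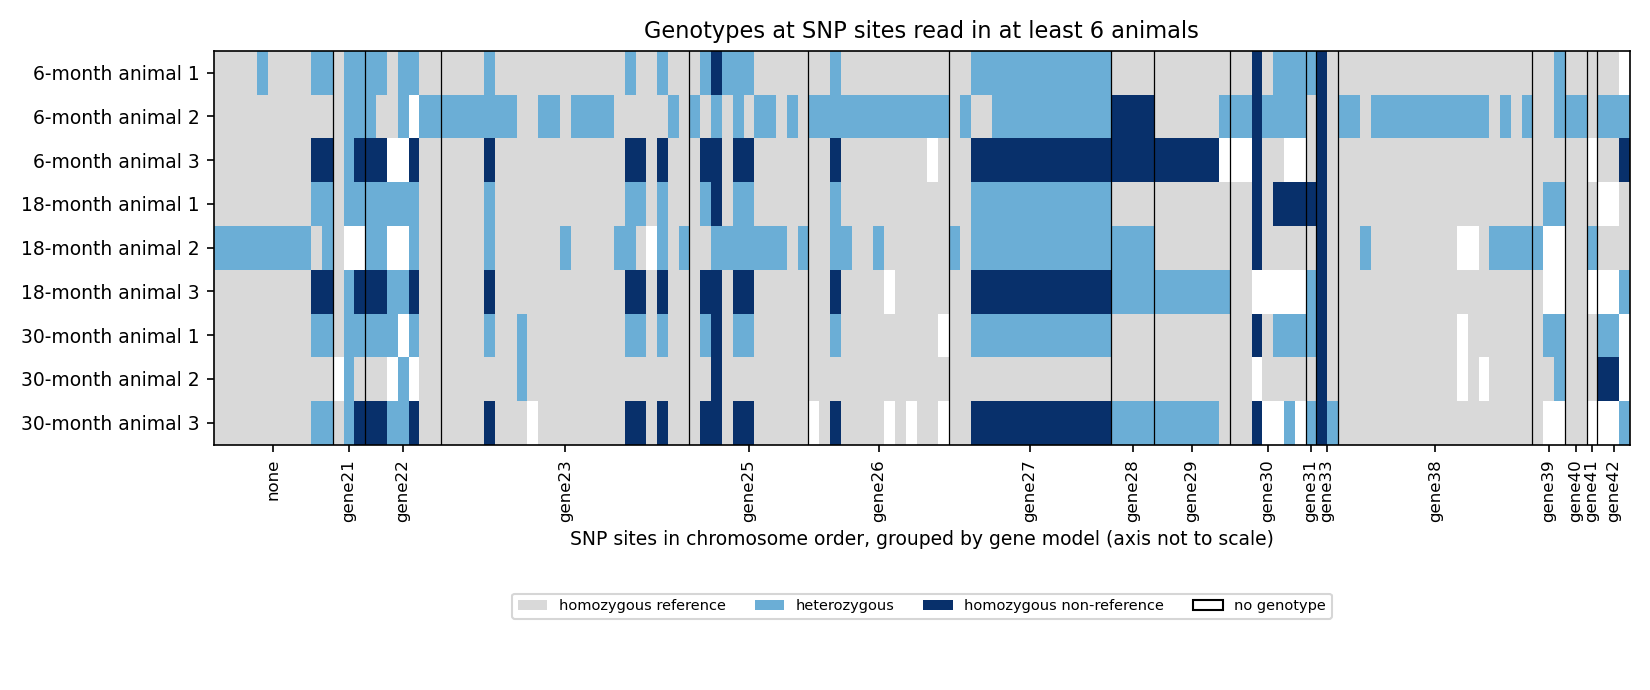
Genotypes of the 9 cows (rows) at SNP sites genotyped in at least 6 cows (columns, in chromosome order and grouped by gene model). Blocks of 1 colour run across neighbouring gene models, as at gene27, where 3 cows are homozygous non-reference, 5 heterozygous and 1 homozygous reference at most sites.

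Close to the locus itself few genotypes could be read. Within 0.2 Mb of 1.7 Mb, 319 SNP sites were listed, of which 129 were intronic and 113 intergenic, and 17 were genotyped in any cow. The nearest genotyped sites lay 73.1 kb below and 76.0 kb above. Substitutions are written with the reference base, the position counted from the start of the chromosome in the table, and the alternative base. The site below, C1626941G in the 5′ untranslated region of gene31, was heterozygous in 4 cows, homozygous non-reference in 18-month animal 1 and homozygous reference in 4. The site above, T1775954G in the 3′ untranslated region of gene33, was the only one of the 101 with the same homozygous genotype in every cow, which was the non-reference one, with 5394 of 5396 reads. Also in gene33, G1776896C, a nonsynonymous change annotated cCa/cGa, was heterozygous in 30-month animal 3 alone. In gene30, C1563318T (5 cows), C1563609T (7 cows) and A1564118G (5 cows) were homozygous non-reference in each cow genotyped, with 143 of 143, 159 of 159 and 140 of 140 reads. Structural alleles such as a duplication are not listed in the tables, so the cows' polled genotype was not read.

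Nonsynonymous changes from gene22 to gene27 largely followed the same blocks, whereas some of those further along had other patterns. Of the 33 nonsynonymous sites, those in gene22, gene23, gene25, gene26 and gene27 that were genotyped in 9 cows varied through 1 cow or had non-reference homozygotes in the same 3 cows as the 134-kb block. G1309122A in gene26 (codon cGg/cAg) had the pattern of the 134-kb block, and G1228277T in gene22 (Gat/Tat), G1258941A in gene23 (cCt/cTt) and A1343061G in gene27 (Atc/Gtc) differed from it only in 6-month animal 2, which had the reference allele. In gene30, C1577769T (cGa/cAa) was heterozygous in 3 cows, homozygous non-reference in 1 and homozygous reference in 3. In gene42, G2436560A (aGc/aAc) was heterozygous in 2 cows, homozygous non-reference in 1 and homozygous reference in 3. Neither pattern matched a block described above. At no nonsynonymous site was every genotyped cow homozygous non-reference. No stop or start change was listed, and 2 sites lay in splice regions. T2439863C in gene42 was homozygous reference in the 2 cows genotyped, while 34 of its 131 reads over all libraries were non-reference. G2498415T in gene44 had 2 reads in all and no genotype.

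Most insertions and deletions genotyped in every cow had a pattern also seen at SNP sites. The window held 154 of 112197 listed, of which 28 were genotyped in at least 1 cow and 8 in all 9. At 7 of those 8 the pattern over the cows was one also seen at a SNP site. The exception was a 1-base insertion annotated as a frameshift in gene29, at 1475480, called heterozygous in 9 of 9 cows with 15.6% to 34.4% non-reference reads (median 22% over 17 libraries). Among those genotyped in fewer cows, an insertion in gene31 at 1593663 was called heterozygous in 6 of 6 cows and an intronic insertion in gene38 at 2077341 in 6 of 7. A 6-base deletion of codons in gene23, at 1255824, was heterozygous in 1 cow. An intronic 1-base insertion in gene25, at 1280829, was homozygous non-reference in all 9 cows. Within 0.2 Mb of 1.7 Mb, 26 were listed and 2 genotyped. SNP sites called heterozygous in every genotyped cow, with at least 4 cows, were A1217181G in gene21 (8 cows, 31.3% non-reference reads), A1230864G in gene22 (6 cows, 30.7%) and A1311488G in gene26 (5 cows, 24.6%), each an A-to-G change.

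Allele reads at heterozygous sites were compared between the tissues. These sites were called from the same RNA reads, and sites at which the tissues differed in genotype were left out, so a site read mostly from 1 allele would tend not to be among them and the closeness of the shares to 50% is partly set by this choice. The median non-reference share per cow was 48.6% ± 2.49 in the pituitary and 48.9% ± 2.65 in the hypothalamus (SD, n = 8 cows, since 6-month animal 3 had 0 heterozygous sites read in both), over 255 site and cow pairs. The difference of -0.231 points was within the spread between cows (SD 2.92), with a higher share in the pituitary in 4 of 8 cows and a two-sided exact sign-flip permutation p = 0.820. The 8 cows had from 3 to 76 heterozygous sites read in both tissues. The largest difference, -5.06 points in 30-month animal 2, rested on 3 sites. On the rest of the chromosome the shares were 47.8% and 47.6% (exact permutation p = 0.293, n = 9).

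By gene model, gene27 had the deepest allele counts, 1083 to 2162 reads per library over 12 to 14 sites, and its share lay between 46.6% and 55.6% in the 10 libraries of 5 heterozygous cows. In gene23 it lay between 45.3% and 52.8%. In gene25 it was under 50% in 10 of 10 libraries, from 39.3% to 49.5%. The widest range was in gene22, from 31.5% in the pituitary of 18-month animal 1 (92 reads) to 55% in the hypothalamus of 6-month animal 2 (120 reads). Sites of a gene model share reads and cows, so they are not replicates.

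**Figure D4:**
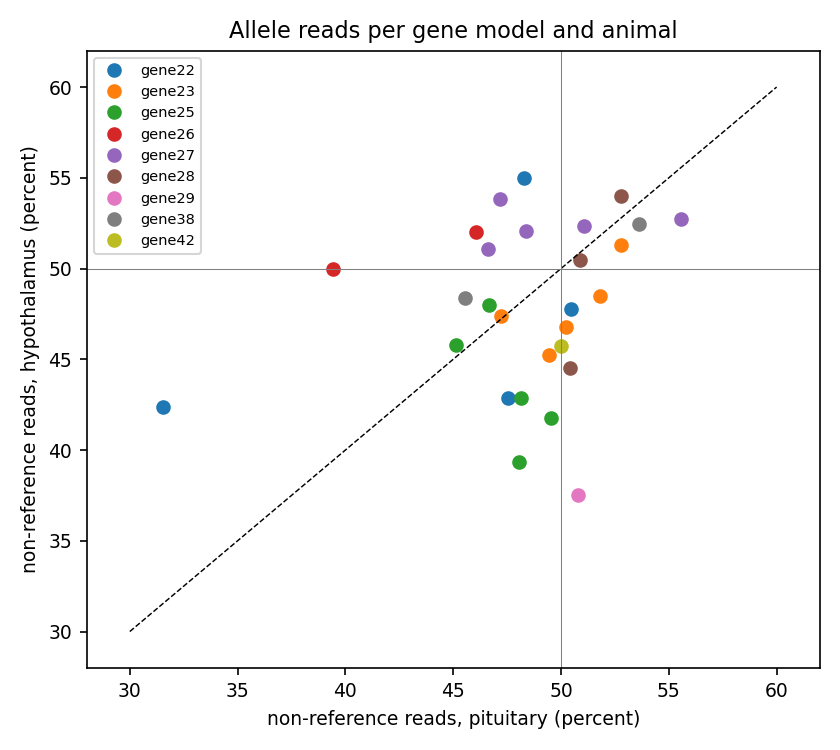
Non-reference reads in percent in the hypothalamus (y axis) against the pituitary (x axis), with a point for each gene model and heterozygous cow, summed over sites; grey lines mark equal reads of both alleles and the dashed line equal shares in both tissues. Most points lie between 45% and 55%, and the lowest pituitary value is 31.5% in gene22.

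Expression of the gene models was compared in FPKM, a fragment count set relative to gene length and library size. The mean over 18 libraries was 10 FPKM or more for 11 of the 20 gene models and under 1 FPKM for 3. The highest means were 37.97 in gene33, 36.9 in gene23, 29.6 in gene27, 27.3 in gene40 and 18.6 in gene39. Their SDs over the libraries were 34.4, 6.09, 7.07, 13.6 and 7.51 FPKM. Each neighbouring pair in this order differed by less than the larger of its SDs, except gene23 and gene27, whose means lay slightly further apart than either SD. Of the gene models with the most listed sites, gene27 (95 sites) was thus among the most abundant, while gene30 (135 sites) had 2.95 FPKM and gene41 (85 sites) 2.28 FPKM. In bulk tissue, fewer cells that express a gene and less RNA per cell cannot be told apart.

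Stability over the libraries differed between gene models. The highest library exceeded the lowest by 1.61 times in gene21 and 1.91 times in gene23, but by 49.99 times in gene33, 18.9 times in gene44, which was under 1 FPKM on average, and 17.6 times in gene35. The median was 3.77 times over the 19 gene models with no library at 0. gene33 had 3.15, 14.2 and 28.3 FPKM in the 6-month pituitary, 33.4, 41.2 and 157.3 in the 18-month and 11.4, 23.9 and 24.6 in the 30-month pituitary. In the hypothalamus it had 34.7, 40.1 and 77.7 FPKM at 6 months, 18.1, 21.5 and 48.4 at 18 months and 24.6, 27.3 and 53.6 at 30 months. The 18-month pituitary values were above those of the other ages in the pituitary, while the hypothalamus ages overlapped. The highest value of both gene33 and gene35 (67.5 FPKM) was in the 18-month pituitary replicate 2. The 18-month pituitary replicate 3, which had the fewest allele reads, was the lowest library for 8 of the 20 gene models. It was the highest for 3. Without it, edgeR gave an unadjusted p under 0.05 for 4 of 20 among pituitary ages (1817 of 19091 overall gene models tested), against 1 with it. Between tissues it was 2 of 20 (1293 of 20351), also against 1. In both fits 0 of 20 had an adjusted p under 0.05, against 1 of 19091 gene models among ages and 0 of 20351 between tissues. Without the 18-month pituitary replicate 1, 4 of 20 among ages also had an unadjusted p under 0.05 (2800 of 19167). The cause was not tested.

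**Figure D5:**
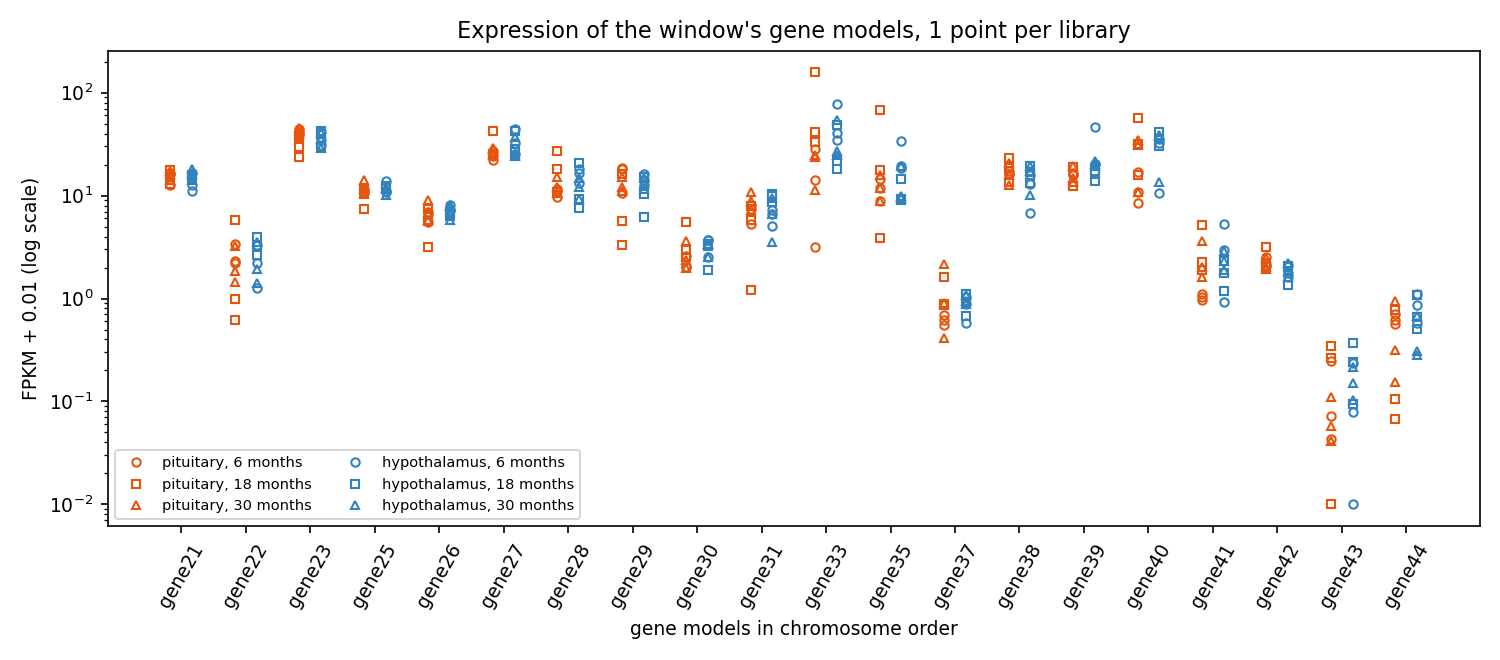
FPKM + 0.01 on a log axis for the 20 gene models in chromosome order, with a point for each of 18 libraries, pituitary in orange and hypothalamus in blue, and the ages by symbol. The tissues overlap in each gene model, and gene33 runs from 3.15 to 157.3 FPKM.

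No gene model of the window passed the test between tissues. This was edgeR's quasi-likelihood test on counts, which took the libraries as independent although each cow gave both tissues. With the cow as a block, 0 of 20 had an unadjusted p under 0.05, against 745 of 19707 gene models. In the main test without the block, 0 of 20 had an adjusted p under 0.05, against 0% of all 19707 gene models tested. In that main test 1 of 20 had an unadjusted p under 0.05, against 5.13%. That gene model was gene39, with a log2 difference of -0.41 between pituitary and hypothalamus (SE 0.17, edgeR adjusted p = 0.929). It had 12.3 to 19.6 FPKM in the pituitary and 13.96 to 46.4 FPKM in the hypothalamus, with overlap. The highest value was in the 6-month hypothalamus replicate 3, and the other hypothalamus libraries reached at most 21.7 FPKM. Without that library, 0 of 20 gene models had an unadjusted edgeR p under 0.05, against 719 of 20400 gene models tested. DESeq2 also called 0 of the 20, against 88 of 19572 gene models. The median log2 difference was -0.09 over the 20 gene models and 0.04 over all gene models. Of the 20, 6 (30%) were higher in the pituitary and 14 lower, against 56% higher among all gene models tested.

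Differences among the 3 ages were likewise not called. In the pituitary 0 of 20 gene models passed, against 0.00539% of 18555, and 1 had an unadjusted p under 0.05, against 7.6%. It was gene33 (edgeR F test, adjusted p = 0.645). In the hypothalamus 0 of 20 passed, against 0% of 18763, and 1 had an unadjusted p under 0.05, against 4.47%. It was gene35 (edgeR F test, adjusted p = 0.958), with 18.6, 19.2 and 33.6 FPKM at 6 months, 9.06, 9.31 and 14.5 at 18 months and 9.55, 9.87 and 19.5 at 30 months. DESeq2 called 0 of the 20 in either tissue, against 212 of 18596 gene models in the pituitary and 58 of 19366 in the hypothalamus. The strand used in counting was not given, so reads of overlapping gene models may be shared.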

How the data were processed

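The window, its measures and the gene models were chosen with earlier results of these data known. The authors deposited, per the file headers, whole-number read counts per gene model, FPKM (fragments scaled by gene model length and library size) and tables of SNP and insertion or deletion sites with genotype, depth and allele read counts per library. GATK, HISAT2, StringTie and DESeq appear in the submitters' processing notes; versions, genome build and annotation were not given in the sources used here. Chromosome names are those of the UMD cattle assembly, and coordinates are printed as in the table. No gene identifier (0 of 27376) matched the RefSeq table, so the cell type markers were not run and no sequence was read.

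Columns were matched to samples by title codes, with 0 left over. Libraries were paired into cows by genotype (depth of at least 20), and same-cow libraries carried the same age label. Depth was the lower of the listed depth and the sum of allele reads. Windows of 2 Mb with a median of at least 50 genotyped sites were compared by exact sign-flip tests over 512 flips. Counts were tested with edgeR 4.0.16 (R 4.3.3), with TMM factors, its expression filter and Benjamini-Hochberg adjustment over all gene models. The alternatives used DESeq2 1.42.0 and limma-trend 3.58.1. The scripts were tested on simulated data. Named gene models were the 5 of highest mean FPKM, the 3 with most listed sites, those with a site within 0.2 Mb of 1.7 Mb and any with an adjusted p under 0.05; others are named for their genotype patterns, chosen after their values were seen. Cows may be related, and the p-values cover the spread between these cows alone.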

Additional observations from a re-analysis of the deposited data

Results flagged for a closer look

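Of 8 measures compared over the cows, 2 had a cow whose distance from its nearest neighbour was large for the range of the group, where chance alone gives about 1 in 20, and both were in 6-month animal 2. Its heterozygosity on the rest of chromosome 1 was 45.9%, above the other 8 cows. Its mean identity by state with the other cows in the window was 64.8%, below the other 8. Low sharing by this cow was not limited to the window. On the rest of the chromosome its pairs ran from 69.9% to 75.4%, against 74.8% to 84.0% for pairs among the other cows.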

How the results depend on the processing

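Each alternative gave 0 called gene models in the 3 expression comparisons. For the tissue comparison this included the replicate block, with the cow as the block (0 of 20 called, 0 at an unadjusted p under 0.05). Over all gene models, DESeq2 called 88 between tissues, 212 among ages in the pituitary and 58 in the hypothalamus, against 0, 1 and 0 with edgeR. The window's heterozygosity stayed below its comparison and uncalled in 18 of 18 alternatives (-8.81 to -1.40 points). So did its homozygous non-reference share (-8.55 to -0.0256 points, the latter with 5 reads per genotype). The comparison was the rest of the chromosome, except in the alternative set against all other autosomes (-7.12 and -6.58 points). The share of sites with a single homozygous genotype was 0% with each gene model counted once. That setting used only gene models with at least 5 sites genotyped in every cow. It left out gene33, which had 2 and held the only site with a single homozygous genotype, so the 0% was fixed by the setting. With a cow left out, the share was 0.952% to 35.6%, and its rank from the lowest moved from 10 to 38 of 38 without 18-month animal 2. It was 4.44% in pituitary libraries alone (rank 27 of 36), 2.44% in hypothalamus libraries alone (rank 17 of 36) and 1.59% without A-to-G and T-to-C changes (rank 12 of 26). The allele share difference changed sign with at least 20 reads (1.37 points), with each gene model counted once (0.468 points) and without 18-month animal 1, 18-month animal 2 or 30-month animal 2 (-0.702 to 0.458 points over the cows left out); the cause was not tested. Genotypes rest on RNA reads, so weakly expressed and intergenic stretches, the locus among them, were mostly not read.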
